A study of Mus musculus with 12 samples.

Results

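The cytosolic ribosomal protein genes encode the protein parts of the small (40S) and large (60S) subunits of the ribosome in the cytoplasm. Here they were taken as the protein-coding mouse genes whose symbols begin with Rpl or Rps and a digit, or with Rplp, together with Rpsa. Ribosomal S6 kinases (Rps6k), pseudogenes and predicted (Gm) genes were left out. This rule uses names only and no measured value, and it found 86 of the 35521 genes in the tables, 34 of the small subunit and 52 of the large subunit.

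RNA-Seq libraries were made from 4T1 cells, a mouse mammary carcinoma line from the BALB/c strain, in 3 groups of 4 libraries. Tu-Gr1+CD11b+–primed cells (labelled 4T1_MDSC_T) had been cocultured for 48 hours with Gr1+ cells from tumors, and Spl-Gr1+CD11b+–primed cells (4T1_MDSC_S) with Gr1+ cells from spleens. The Gr1+ cells came from BALB/c mice that carried 4T1 tumors, were taken at day 21 according to the labels and purified on magnetic columns, and were kept apart from the 4T1 cells by a Transwell membrane with 0.4 μm pores. The remaining group was parental 4T1 cells (4T1), for which no culture time or membrane was given. In comparisons with parental cells, an effect of the Gr1+ cells therefore cannot be told apart from one of the culture conditions. The tables held 24566183 to 31637755 estimated reads per library. The labels do not say whether the replicates are separate cultures, so p-values measure the spread between these libraries, which may be technical. Of 22 granulocyte and monocyte markers, 8 had no count in any library, among them the granule genes Elane, Ngp and Camp, and the summed level of the whole list was 171 to 204 CPM (counts scaled to library size) in Tu-Gr1+CD11b+–primed, 147 to 165 in Spl-Gr1+CD11b+–primed and 143 to 147 in parental libraries. Of the 5 that had enough reads to test, 3 were higher in Tu-Gr1+CD11b+–primed and 0 in Spl-Gr1+CD11b+–primed than in parental cells. Between the primed groups 2 of the 5 were higher in Tu-Gr1+CD11b+–primed cells and 0 were lower. Ltf, another marker of this list, had the smallest p among those higher in Tu-Gr1+CD11b+–primed cells. Its log2 fold change was 1.21 (adjusted p = 5.8e-05, edgeR) against parental and 1.16 (adjusted p = 0.00082, edgeR) against Spl-Gr1+CD11b+–primed cells. None of 12 epithelial and 4T1 markers was at 0. Their summed level was 1959 to 2398, 2449 to 2641 and 2724 to 4041 CPM in the same order. The part of these marker differences in the results was not tested.

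Each ribosome carries most of these proteins in a single copy, and a growing cell spends a large part of its mRNA on making them. Their mRNAs typically begin with a C followed by a run of pyrimidines, the terminal oligopyrimidine (TOP) motif, through which the kinase complex mTORC1 and the RNA-binding protein LARP1 adjust their translation and stability to nutrients. MYC is a known activator of the transcription of ribosomal protein genes and of ribosome assembly factors. Most ribosomal protein genes also have many processed pseudogenes, copies of the mRNA inserted elsewhere in the genome, which makes short reads hard to place.

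The first bases of 6 genes are printed because the TOP motif lies there and because the genes recur below. Each run holds 15 bases before and 15 bases from the annotated start, 5′ to 3′ on the gene's strand, from RefSeq (GRCm38.p6). Capitals mark a C and the C or T bases that follow it without a break, at least 4 of them, where that tract starts within 3 bases of the annotated start. The positions are chr4:86857353-86857382 (minus strand) for Rps6, chr17:33955651-33955680 (minus) for Rps18, chr7:141447636-141447665 (plus) for Rplp2, chr3:90213634-90213663 (minus) for Rps27, chr17:46782642-46782671 (minus) for Rpl7l1 and chr15:80264292-80264321 (minus) for Rps19bp1.
Rps6: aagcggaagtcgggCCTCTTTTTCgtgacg
Rps18: tacgtcacttccgCTCTCTCTTCCacagga
Rplp2: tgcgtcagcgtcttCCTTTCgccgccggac
Rps27: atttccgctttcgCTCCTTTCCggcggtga
Rpl7l1: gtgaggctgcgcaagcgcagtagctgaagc
Rps19bp1: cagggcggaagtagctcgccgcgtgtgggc

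The first 4 genes encode ribosome subunits and hold such a tract. Rpl7l1, a nucleolar protein related to Rpl7, and Rps19bp1, a nucleolar protein that binds Rps19, fit the naming rule without being subunits of the mature ribosome, and their windows hold none. The promoter table had 78 windows of 250 bases before and 50 after the start, for 66 of the 86 genes. A tract was found in 27 of the 78 windows (34.6%), against 11.5% of all 32851 windows in the table, on the sense strand only.

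Ribosomal protein mRNAs made up a smaller share of the RNA in primed than in parental cells. They took 3.31%, 3.53%, 3.05% and 3.40% of the reads in the Tu-Gr1+CD11b+–primed libraries (3.32% ± 0.20, SD, n = 4) and 4.17%, 4.05%, 4.51% and 4.76% in the parental libraries (4.37% ± 0.32). Every Tu-Gr1+CD11b+–primed library lay below every parental library. The Spl-Gr1+CD11b+–primed libraries held 3.36%, 3.42%, 4.14% and 3.30% (3.56% ± 0.39). Replicate 3 stood apart from the other 3 and reached into the parental range, and without it the mean was 3.36%. No test was run on these sums, whose members share their libraries.

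**Figure D1:**
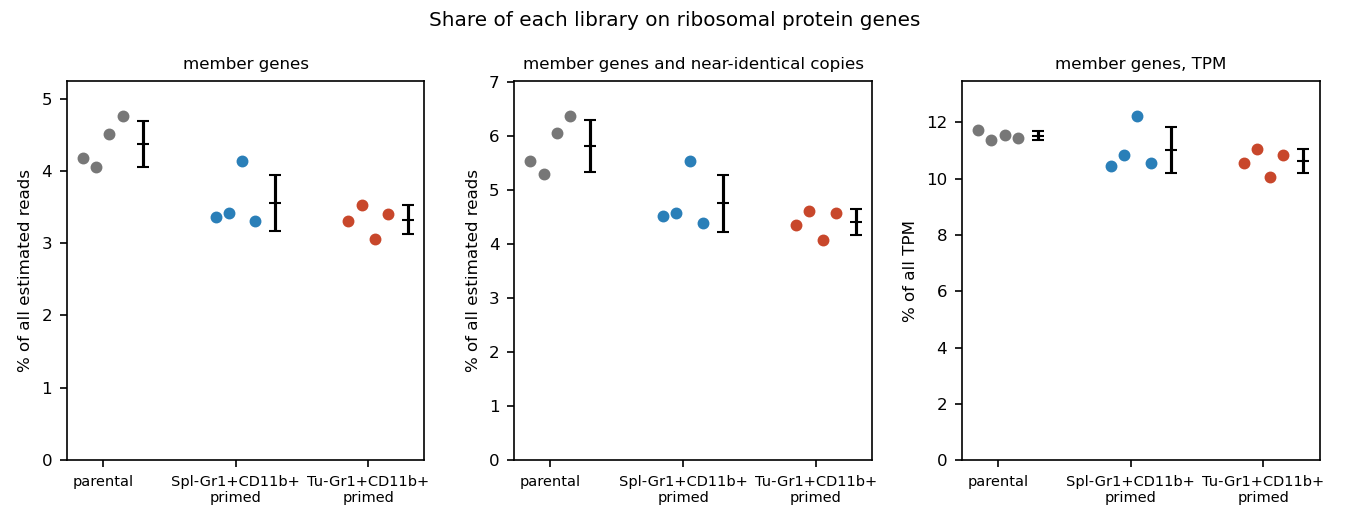
Share of each library on the 86 ribosomal protein genes by group, with 1 point per library and a bar for the group mean and SD (n = 4): percent of estimated reads (left), the same with near-identical copies added (middle) and percent of TPM (right). On the left the Tu-Gr1+CD11b+–primed libraries lie at 3.05% to 3.53% and the parental ones at 4.05% to 4.76%, with Spl-Gr1+CD11b+–primed replicate 3 at 4.14%, while in TPM the same replicate lies above every parental library and the Tu-Gr1+CD11b+–primed libraries still lie below them.

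On the TPM scale, which divides reads by transcript length before scaling, the share fell less: 10.6% ± 0.43 in Tu-Gr1+CD11b+–primed, 11.0% ± 0.83 in Spl-Gr1+CD11b+–primed and 11.5% ± 0.15 in parental libraries (SD, n = 4 each). The 13 protein-coding genes of the mitochondrial genome held 9.87% ± 1.14, 11.0% ± 0.88 and 20.5% ± 3.07 of TPM in the same groups, without overlap between primed and parental libraries, and the short mt-Atp8 alone, a subunit of ATP synthase, held 10.2% to 15.0% in parental cells. The part of mitochondrial RNA in the members' share was not tested. With those genes left out of the total, ribosomal protein mRNAs took 11.8% ± 0.53, 12.4% ± 0.90 and 14.5% ± 0.53 of TPM. The median TPM ratio to parental cells over all 12555 tested genes was itself shifted by 0.47 and 0.40 on the log2 scale, and against that shift the ribosomal protein genes lay at -0.58 and -0.47 (TPM plus 0.1). Folds below are from counts scaled by edgeR's trimmed mean of M values, where the median over all genes was 0.02 in each comparison with parental cells.

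Gene by gene, 78 of the 82 ribosomal protein genes with enough reads to test were lower in Tu-Gr1+CD11b+–primed than in parental cells, 1 was higher (Rps18) and 3 passed no test (Rps2, Rpl5 and Rpl12). Calls are at an adjusted p under 0.05 (Benjamini-Hochberg over all 12555 tested genes) in the quasi-likelihood test of edgeR. The median log2 fold change was -0.58, or 0.67-fold, and single genes ranged from -1.01 (Rplp1) to 1.25 (Rps18). Across all genes, 28% were lower and 31.2% higher by the same rule. In 77 of the 82 genes every primed library lay below every parental library, which held for 26.9% of all genes, and Rps18 was the 1 gene with the reverse order, which held for 28.6%. The 4 genes that were not tested are copies known from testis or muscle, or a retrogene: Rpl3l, Rpl10l and Rpl39l had no count in any library, and Rps27rt had at most 6.

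Spl-Gr1+CD11b+–primed cells gave 76 lower and 1 higher of 82, and Rpl7l1, Rpl10a, Rpl5, Rpl12 and Rps2 passed no test. The median log2 fold change was -0.46, with 22.5% of all genes lower and 25.7% higher. Here 62 genes had non-overlapping libraries, against 18.3% of all genes, and Rps18 again had the reverse order (21.3% of all genes). Without replicate 3, the library that stood apart, 78 genes were lower and the median was -0.55. Both comparisons rest on the same 4 parental libraries and are therefore not independent of each other.

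The shift was spread over the whole set. Each library's median over the tested members, relative to the parental mean on the log2 scale, was -0.56, -0.46, -0.68 and -0.54 in Tu-Gr1+CD11b+–primed cells. It was -0.51, -0.52, -0.24 and -0.58 in Spl-Gr1+CD11b+–primed cells, and -0.09, -0.13, 0.04 and 0.18 in parental cells. Both subunits took part: the 33 tested small subunit genes had a median of -0.59 against parental cells in the first comparison and -0.49 in the second, with 31 lower in each. The 49 large subunit genes had medians of -0.57 and -0.46, with 47 and 45 lower.

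**Figure D2:**
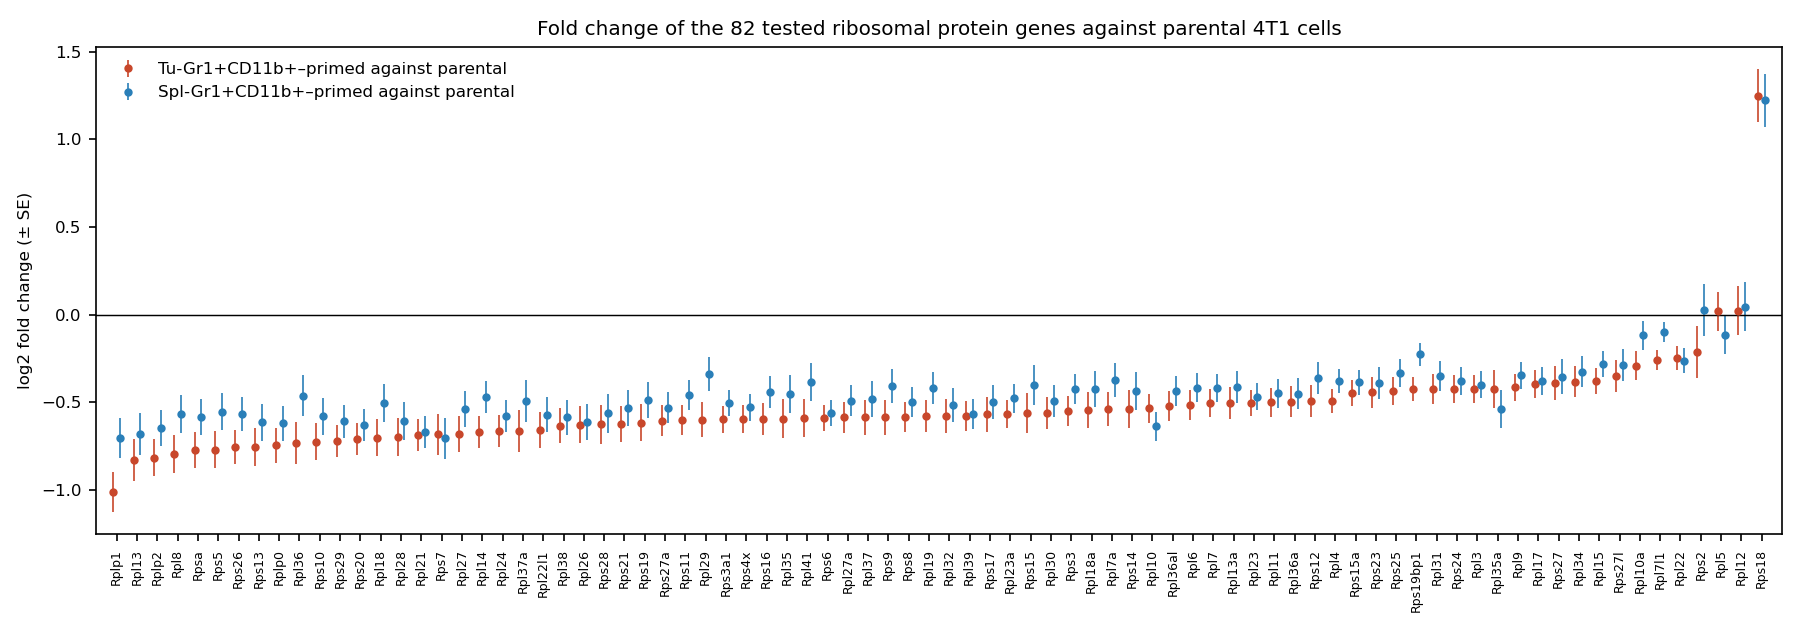
Log2 fold change with SE (vertical axis) of each of the 82 tested ribosomal protein genes (horizontal axis, ordered by the change in Tu-Gr1+CD11b+–primed cells), for both primed groups against parental cells. The genes run from Rplp1 at -1.01 on the left to Rps18, alone far above 0, at 1.25 and 1.22 on the right.

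Rplp1, with Rplp2 one of the acidic proteins of the lateral stalk that recruits elongation factors to the ribosome, fell furthest in Tu-Gr1+CD11b+–primed cells. Its level (9:61913284-61914542 of GRCm38, minus strand) was 439, 426, 377 and 403 CPM in Tu-Gr1+CD11b+–primed, 468, 489, 633 and 447 in Spl-Gr1+CD11b+–primed and 782, 706, 830 and 998 in parental libraries. The 3 groups did not overlap. The log2 fold change against parental cells was -1.01 ± 0.12 (SE; adjusted p = 7.92e-06, edgeR) in Tu-Gr1+CD11b+–primed and -0.70 ± 0.11 (adjusted p = 0.00026) with splenic Gr1+ cells. Rplp2, whose TOP tract is printed above, changed by -0.81 and -0.65. Rplp0, the scaffold that anchors both to the large subunit, changed by -0.75 and -0.62, from 1950 ± 299.8 CPM in parental to 1163 ± 74.6 and 1270 ± 113 CPM in primed cells. The fourth protein of the stalk base, Rpl12, passed no test and is taken up with the copies below.

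The genes for proteins lining the mRNA exit and the platform of the small subunit fell together with Rplp0, Rplp1 and Rplp2. All 6 listed genes were lower in both comparisons, with medians of -0.72 and -0.57. Rpsa, at the mRNA exit and also known as a laminin receptor precursor, was at 2076, 2135, 1853 and 2266 CPM in Tu-Gr1+CD11b+–primed, 2339, 2327, 2650 and 2169 in Spl-Gr1+CD11b+–primed and 3227, 2986, 3832 and 4170 in parental libraries. Both primed groups lay wholly below the parental libraries, with log2 fold changes of -0.77 and -0.58. Rps26, which contacts the mRNA upstream of the start codon, changed by -0.76 and -0.57.

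Rps6, the substrate of S6 kinase downstream of mTORC1, was at 569, 638, 529 and 610 CPM in Tu-Gr1+CD11b+–primed, 587, 578, 658 and 570 in Spl-Gr1+CD11b+–primed and 814, 846, 905 and 963 in parental libraries. No primed library reached the lowest parental one. The log2 fold change was -0.59 ± 0.07 (adjusted p = 1.55e-05, edgeR) and -0.56 ± 0.07 (adjusted p = 4.67e-05). Rps27a, which is made as a fusion with ubiquitin, changed by -0.61 and -0.53, and Rps3a1, at the mRNA exit, by -0.60 and -0.50. Among genes with the smallest p-values, Rps20 changed by -0.71 and -0.63, Rps4x by -0.59 and -0.53, Rpl10, which completes the large subunit late in its assembly, by -0.53 and -0.64, and Rpl21 by -0.68 and -0.67. In the mRNA entry and decoding list, 4 of 5 genes were lower in each comparison, Rps2 being the exception, and Rps23, at the decoding centre, changed by -0.44 and -0.39.

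The 8 genes at the exit of the peptide tunnel were all lower in both comparisons, with medians of -0.57 and -0.43. Among them, Rpl23a, a docking site for the signal recognition particle, changed by -0.57 and -0.48, and Rpl39, a small protein of the tunnel wall, by -0.58 and -0.57. Of 16 genes mutated in the inherited anaemia Diamond-Blackfan anaemia, 15 were lower in each comparison, with medians of -0.59 and -0.52, and Rpl5 was the exception. Rpl11, the partner of Rpl5 in the 5S ribonucleoprotein that can bind MDM2, fell by 0.50 and 0.45 on the log2 scale.

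By length-corrected level, the most abundant member was Rpl41, the shortest ribosomal protein, at a mean of 4590 TPM over the 12 libraries, followed by Rpl7 (3387 TPM), Rpsa (2905 TPM), Rplp1 (2728 TPM) and Rpl23a (2497 TPM). Rpl41 changed by -0.59 and -0.39 in counts, and its Spl-Gr1+CD11b+–primed libraries overlapped the parental ones. Rpl7 changed by -0.50 and -0.42.

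Most paralogs of the set were lower together. Rpl22 and Rpl22l1 encode closely related large subunit proteins. Rpl22 was at 183.9 ± 13.0, 181.9 ± 17.3 and 218 ± 9.36 CPM in Tu-Gr1+CD11b+–primed, Spl-Gr1+CD11b+–primed and parental cells (SD, n = 4), and changed by -0.25 ± 0.07 and -0.26 ± 0.07 (SE). Rpl22l1 was at 33.5 ± 3.34, 35.6 ± 4.56 and 52.8 ± 5.94 CPM and changed by -0.66 ± 0.10 and -0.57 ± 0.10. The difference between the paralogs was not tested. Rps27 and its p53-induced paralog Rps27l changed by -0.39 and -0.35 in Tu-Gr1+CD11b+–primed and by -0.35 and -0.29 in Spl-Gr1+CD11b+–primed cells. Rpl36a and Rpl36al changed by -0.50 and -0.52 in the former, and by -0.45 and -0.44 in the latter. Over the whole list of paralogs, 15 of 15 tested genes were lower in the first comparison and 14 in the second.

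The tested genes that are no subunits had small fold changes in Spl-Gr1+CD11b+–primed cells. So did some subunit genes as annotated, such as Rpl10a (-0.12) and Rpl22 (-0.26). Rpl7l1 was at 150, 148, 137 and 152 CPM in Tu-Gr1+CD11b+–primed, 165, 157, 181 and 155 in Spl-Gr1+CD11b+–primed and 179, 180, 175 and 170 in parental libraries. Its log2 fold change was -0.26 ± 0.06 (adjusted p = 0.0014, edgeR) against parental cells in the first group, and -0.10 ± 0.06 (adjusted p = 0.175) in the second. Rps19bp1 changed by -0.43 and -0.23 and passed the test in both, although its Spl-Gr1+CD11b+–primed libraries overlapped the parental ones. Rps23rg1, the remaining gene of this list, was not analysed here.

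No ribosomal protein gene differed between Tu-Gr1+CD11b+–primed and Spl-Gr1+CD11b+–primed cells by edgeR, where 4.66% of all genes were called higher and 2.97% called lower. DESeq2 and limma called none either. At an unadjusted p under 0.05 the edgeR test gave 0 higher and 6 lower of 82 members. Over all 12555 tested genes it gave 1284 higher and 1556 lower. The median log2 fold change was -0.093, and it was 0.0042 without Spl-Gr1+CD11b+–primed replicate 3. In 4 genes the Tu-Gr1+CD11b+–primed libraries lay wholly below the Spl-Gr1+CD11b+–primed ones, a pattern found in 8.51% of all genes. The smallest p-values belonged to Rps19bp1 (-0.20 ± 0.07, adjusted p = 0.0955, edgeR), Rpl7l1 (-0.16 ± 0.06, adjusted p = 0.101) and Rplp1 (-0.31 ± 0.11, adjusted p = 0.121), followed by Rpl29 at -0.26 and Rpl36 at -0.27. Among members with a positive fold change, Rpl10 stood at 0.10 and Rpl5 at 0.13.

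The 4 exceptions to the fall in Tu-Gr1+CD11b+–primed cells, Rps18, Rps2, Rpl12 and Rpl5, had most of their reads on copies. By sequence, 338 pseudogenes and predicted genes matched 70 of the members (at least 95% identity over at least 60% of the shorter transcript). For 11 members, more than 50% of the summed reads of gene and copies were on the copies, led by Rps2 (99.5%), Rps18 (97.2%), Rpl12 (93.9%) and Rpl5 (91.3%). How the deposited estimates divide reads between a gene and its copies is uncertain. With the reads of copies added to their gene, 82 of 82 genes were lower in Tu-Gr1+CD11b+–primed and 81 in Spl-Gr1+CD11b+–primed cells, with Rpl7l1 the exception, and none was higher. In that fit 7409 and 6052 of all 12502 tested genes were called in either direction, and the share called lower is not given. The members' medians were -0.57 and -0.46. On this count the share of all reads was 4.41%, 4.76% and 5.82% in Tu-Gr1+CD11b+–primed, Spl-Gr1+CD11b+–primed and parental cells.

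Rps18, a protein of the head of the small subunit (17:33951999-33956001, minus strand), showed the change of sign most plainly. As annotated it was at 26.9, 32.5, 25.5 and 24.8 CPM in Tu-Gr1+CD11b+–primed, 23.1, 26.2, 34.5 and 23.9 in Spl-Gr1+CD11b+–primed and 10.5, 15.1, 9.98 and 10.6 in parental libraries. Every primed library was above every parental one, and the log2 fold changes were 1.25 ± 0.15 (adjusted p = 1.25e-05, edgeR) and 1.22 ± 0.15 (adjusted p = 3.16e-05). With its copies it was at 691.6 ± 57.7, 747.8 ± 85.2 and 962 ± 148.5 CPM in the same order, and the log2 fold changes were -0.48 ± 0.11 (adjusted p = 0.00144) and -0.37 ± 0.11 (adjusted p = 0.011). From its protein-coding transcripts alone they were -0.62 and -0.72.

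Rps2, a protein of the mRNA entry channel, had -0.21 and 0.03 as annotated, and -0.79 and -0.52 with its copies, where its level was 1826 ± 119.8, 2195 ± 259.8 and 3148 ± 487.5 CPM. Rpl12 went from 0.02 and 0.05 to -0.51 and -0.43, and Rpl5 from 0.02 and -0.11 to -0.37 and -0.33. All of the copy-added values for these genes passed the test, so for them the sign or the call depended on how copies were counted. It also depended on which transcripts were counted. From protein-coding transcripts alone, without copies, Rps2 had -1.26 and -1.03 and Rpl12 -0.56 and -0.80, which passed the test. Rpl5 had -0.10 and -0.22 and did not pass. For Rpl26, Rpl3, Rps7 and Rpl35a, which also had most of their reads on copies, the genes as annotated already fell, with log2 fold changes of -0.63, -0.42, -0.68 and -0.42 in Tu-Gr1+CD11b+–primed and -0.61, -0.40, -0.71 and -0.54 in Spl-Gr1+CD11b+–primed cells.

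**Figure D3:**
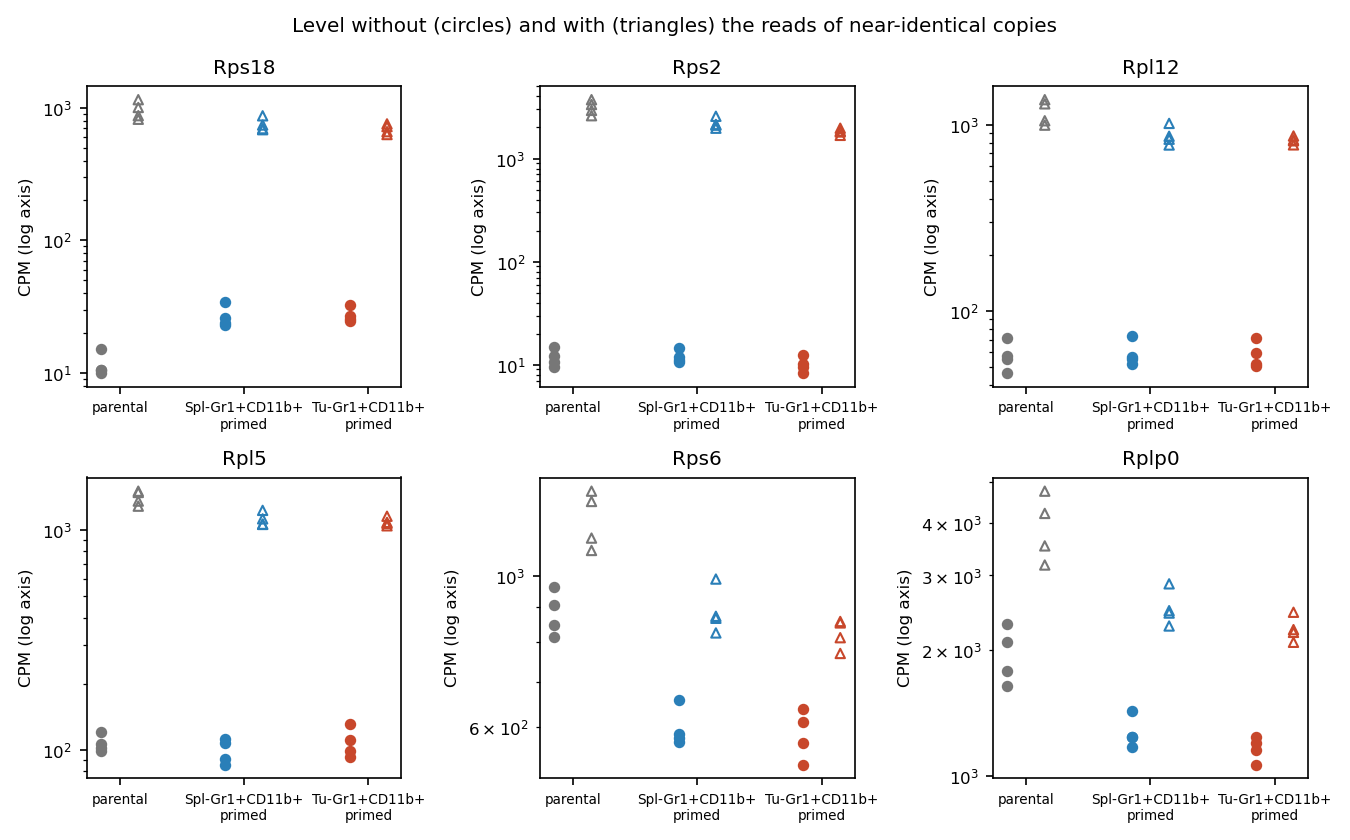
CPM per library (log axis, a separate range in each panel) of Rps18, Rps2, Rpl12, Rpl5, Rps6 and Rplp0 by group, without (circles) and with (triangles) the reads of near-identical copies. For Rps18 the circles of the primed groups lie above the parental ones, and the triangles have group means of 691.6, 747.8 and 962 CPM in Tu-Gr1+CD11b+–primed, Spl-Gr1+CD11b+–primed and parental cells.

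The fall was found in protein-coding transcripts, while low-abundance retained-intron transcripts of the same genes rose. A retained-intron transcript is an annotated RNA that keeps intron sequence and is not assigned a protein. In the same kind of fit on transcripts, of 195 tested protein-coding transcripts of members 119 were lower and 6 higher in Tu-Gr1+CD11b+–primed than in parental cells, with a median log2 fold change of -0.66 (18.8% of all protein-coding transcripts were lower, 9.34% higher). In Spl-Gr1+CD11b+–primed cells 122 were lower and 8 higher, with a median of -0.58 (16.3% and 6.55%). Of 137 tested retained-intron transcripts, from 56 members, 75 were higher and 10 lower in the first comparison, with a median of 1.60 (45.9% of all retained-intron transcripts were higher and 1.95% lower). In the second, 71 were higher and 7 lower, with a median of 1.65 (41.3% and 1.69%). Over all 195 tested noncoding transcripts of members, 90 were higher and 24 lower in the first comparison (32.5% and 3.98% of all noncoding transcripts), and 86 higher and 21 lower in the second (28.8% and 3.1%). The retained-intron transcripts of other genes had medians of 1.79 and 1.69, so that a rise of this class was shared with genes outside the set. A transcript was tested if as few as 4 libraries held enough reads. One that was scarce in parental cells could thus be tested through primed libraries alone. With a minimum of 10 counts in every library, fewer noncoding transcripts of members were tested and fewer were called higher.

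In single genes both directions occurred together. In Tu-Gr1+CD11b+–primed cells 78 members had a lower protein-coding transcript, 42 had a higher retained-intron transcript, and 39 had both, against 32.5%, 56% and 21.9% of all genes with such transcripts tested. The members tested were 82 for the first count and 56 for the others. In Spl-Gr1+CD11b+–primed cells the counts were 80, 42 and 41, against 28.7%, 51.4% and 18.2% of all genes. Rps24-204, a retained-intron transcript of the small subunit gene Rps24, was at 12.1 ± 1.48, 14.3 ± 2.16 and 1.90 ± 1.46 CPM in Tu-Gr1+CD11b+–primed, Spl-Gr1+CD11b+–primed and parental cells (SD, n = 4). Rpl3-204, from the gene for a protein near the peptidyl transferase centre, was at 22.8 ± 2.54, 27.1 ± 3.39 and 5.14 ± 3.06 CPM, and Rpl10-207 at 7.79 ± 0.33, 7.84 ± 1.19 and 2.18 ± 0.61 CPM. None of these 3 groups of primed libraries overlapped the parental ones. These transcripts were chosen after their values were seen.

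The same transcripts bear on the exceptions above. Rps18-207, annotated as retained-intron, was at 13.9 ± 2.34, 14.0 ± 2.69 and 5.65 ± 1.74 CPM and was the main noncoding transcript of Rps18, whose retained-intron transcripts took 73.0%, 73.6% and 57.0% of the gene's reads. Rpl12-207, of the same class, was at 19.5 ± 2.13, 21.7 ± 4.72 and 6.55 ± 2.75 CPM, while the protein-coding Rpl12-203 was at 31.6 ± 8.11, 26.7 ± 3.48 and 51.2 ± 8.29 CPM. For Rpl10a, a large subunit protein singled out after its values were seen, the gene changed by -0.29 and -0.12 and passed the test in the first comparison only. Its retained-intron transcript Rpl10a-206 had no count in any parental library and was at 7.65 to 16.8 CPM in Tu-Gr1+CD11b+–primed and 8.25 to 22.6 CPM in Spl-Gr1+CD11b+–primed libraries, on average at least 97.2-fold and at least 138-fold higher than the level of 3 counts in a parental library. From protein-coding transcripts alone Rpl10a fell by 0.44 (adjusted p = 0.000798, edgeR) and 0.32 (adjusted p = 0.00932).

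The retained-intron transcripts that rose were mostly of low level, and most of those that fell were abundant. Of the 74 with a mean under 2 CPM, 44 rose and 0 fell in Tu-Gr1+CD11b+–primed cells, and of the 13 at 50 CPM or more, 0 rose and 9 fell, with a median of -0.63. In Spl-Gr1+CD11b+–primed cells 40 of the former rose and 0 fell, and 0 of the latter rose and 6 fell, with a median of -0.46. Between these limits, 1 transcript fell in each comparison. Other genes showed a like split: under 2 CPM, 2551 of 5711 rose and 18 fell in the first comparison and 2221 rose and 18 fell in the second, while at 50 CPM or more 10 of 54 rose and 25 fell, and 8 rose and 24 fell. This split was chosen after the values were seen and was given no test. The mean level was taken over the same libraries, and transcripts scarce in parental cells could be tested through the primed libraries alone. The abundant ones included Rps20-201 (239 ± 6.94, 255 ± 28.5 and 428 ± 68.3 CPM), Rps26-202 (219 ± 11.7, 258 ± 42.2 and 392 ± 62.9 CPM) and Rplp0-203 (204 ± 9.14, 201 ± 25.7 and 359.8 ± 60.9 CPM). Rps20-201 and Rps26-202 held the larger part of their genes' reads in all groups.

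**Figure D4:**
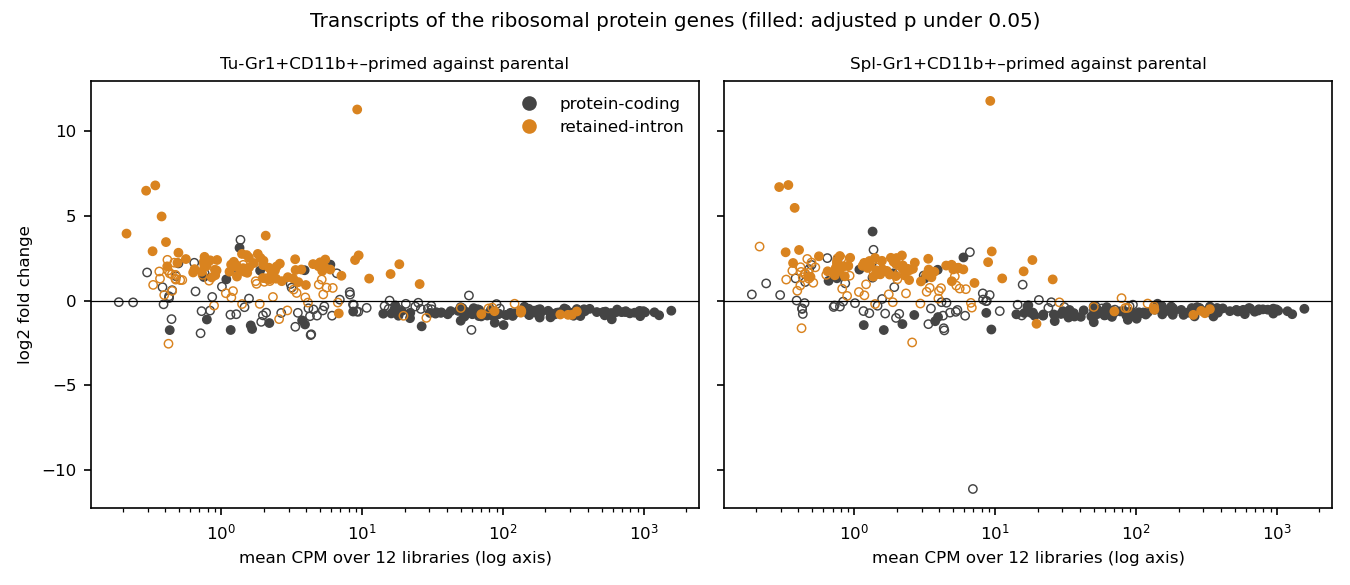
Log2 fold change against parental cells (vertical axis) by mean CPM over the 12 libraries (horizontal log axis) for the protein-coding and retained-intron transcripts of ribosomal protein genes, with Tu-Gr1+CD11b+–primed cells on the left and Spl-Gr1+CD11b+–primed cells on the right. Filled points passed the test (adjusted p under 0.05, edgeR) and open points did not. Most filled retained-intron points under 2 CPM lie above 0 and all those at 50 CPM or more lie below it, and the points beyond 5 or -5, such as Rpl10a-206, are of transcripts at or near 0 in a group, depend on the prior count of the fit and give no size.

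Over all members, retained-intron transcripts took 6.79% ± 0.19 of the members' reads in Tu-Gr1+CD11b+–primed, 6.89% ± 0.13 in Spl-Gr1+CD11b+–primed and 5.82% ± 0.11 in parental cells (SD, n = 4). In other protein-coding genes the class took 3.36% ± 0.11, 3.33% ± 0.24 and 2.04% ± 0.12. Neither measure overlapped between primed and parental libraries. Within the 65 members that have such a transcript, its share of the gene's reads was higher without overlap in 42 members in Tu-Gr1+CD11b+–primed and 37 in Spl-Gr1+CD11b+–primed cells, against parental cells, and in 1 member between the primed groups. Over all 7121 tested protein-coding genes with such a transcript this held for 40.7%, 37.2% and 2.7%. The reverse order held for 0 members in either comparison with parental cells, and for 0.506% and 0.562% of all genes. No transcript of a member differed between the primed groups by edgeR, while DESeq2 called 1 noncoding transcript lower with tumor-derived Gr1+ cells. Of all transcripts, 0.716% of protein-coding ones were higher and 0.109% lower there, 0.126% and 0.007% of noncoding ones, and 0.0756% and 0% of retained-intron ones.

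Ribosomal protein transcripts are short, and short genes of other kinds were also lower. The tested members had a median effective length of 395 bases, from 103 to 1515, against 2138 for the other tested genes. Among 605 other genes of up to 500 bases the median log2 fold change was -0.25 in Tu-Gr1+CD11b+–primed and -0.19 in Spl-Gr1+CD11b+–primed cells, against -0.58 and -0.46 in the 55 members of that length. Between 500 and 1000 bases it was -0.10 and -0.06 in other genes, against -0.59 and -0.50 in 21 members. In other genes over 4000 bases it was 0.07 and 0.03. The part of length in the members' fall was not tested.

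Members with and without the TOP tract had medians close to each other, a difference that was not tested. The 25 tested members with a tract had medians of -0.54 and -0.41 against parental cells, with 23 lower in each, and the 37 members with a window but no tract had -0.58 and -0.45, with 35 and 33 lower. The absence of a tract says only that these letters are not at the annotated start.

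Genes for other parts of the translation machinery were lower as well. The lists below are to be read against all tested genes, of which 31.2% rose and 28% fell in Tu-Gr1+CD11b+–primed cells and 25.7% rose and 22.5% fell in Spl-Gr1+CD11b+–primed cells, with a median of 0.02 in each. Fau, whose product is a ubiquitin-like protein fused to a small subunit protein, was at 226 ± 22.8, 251.9 ± 33.8 and 354.6 ± 55.3 CPM in Tu-Gr1+CD11b+–primed, Spl-Gr1+CD11b+–primed and parental cells, with log2 fold changes of -0.65 and -0.49. Rack1, a scaffold protein on the head of the small subunit, changed by -0.50 and -0.35, and its Spl-Gr1+CD11b+–primed libraries overlapped the parental ones. Both passed the test in both comparisons. Of 7 elongation factors, 7 were lower in the first comparison and 6 in the second, with medians of -0.58 and -0.44. Eef2, the translocase, was at 2710 ± 209.9, 3040 ± 91.3 and 4639 ± 699 CPM in Tu-Gr1+CD11b+–primed, Spl-Gr1+CD11b+–primed and parental cells.

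Of 34 initiation factors, 28 were lower and 1 higher in Tu-Gr1+CD11b+–primed cells, with a median of -0.40, and 27 lower and 1 higher in Spl-Gr1+CD11b+–primed cells, with a median of -0.33. Eif3l, a subunit of the eIF3 scaffold, changed by -0.78 in the first. The gene that rose was Eif4a2, a paralog of the helicase Eif4a1, at 260.2 ± 18.6, 235.2 ± 18.2 and 87.1 ± 20.1 CPM, with log2 fold changes of 1.58 and 1.43. Of 12 other RNAs known for TOP motifs, 6 were analysed here, of which 5 and 4 were lower, with medians of -0.46 and -0.34. Vim, an intermediate filament of mesenchymal cells, changed by -0.87 in the first comparison, and Pabpc1, the poly(A)-binding protein, by -0.43 in the second.

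The genes for ribosome assembly factors were mostly lower as well. Of 70, 57 were lower and 2 higher in Tu-Gr1+CD11b+–primed cells (median -0.39), and 43 lower and 2 higher in Spl-Gr1+CD11b+–primed cells (median -0.25). Rrp12, an exporter of pre-ribosomal subunits, changed by -1.09 in the first comparison, and Nol6, a nucleolar processing factor, by -0.49 in the second. Sbds, which releases eIF6 from new large subunits, rose by 0.25 in the first, and Gnl3, nucleostemin, rose by 0.39 in the second. This list also held calls between the primed groups, where 14 of 70 were lower with tumor-derived Gr1+ cells, with a median of -0.15 and 2.97% of all genes lower. Wdr12, of the PeBoW complex for large subunit assembly, was at 47.1 ± 1.73, 59.9 ± 6.20 and 74.5 ± 1.88 CPM, with -0.35 between the primed groups (adjusted p = 0.00411, edgeR).

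RNA polymerase I and its factors, which make the ribosomal RNA, moved both ways, with 4 of 15 (26.7%) higher and 8 (53.3%) lower in each comparison. Taf1d, of the polymerase I promoter factor SL1, rose by 1.18 and 1.28, while the polymerase subunit Cd3eap changed by -0.63 in the first comparison and the catalytic subunit Polr1a by -0.57 in the second. Of 20 genes of mTORC1 and the TOP regulators, 4 rose (20%) and 7 fell (35%) in the first comparison, and 3 rose (15%) and 5 fell (25%) in the second, shares of falling genes near those of all genes, with medians of -0.09 and -0.12. Lamtor3, of the Ragulator anchor of mTORC1, rose by 0.45 and 0.46, and Larp1, which binds the TOP motif, fell by 0.34 in the second comparison. These are mRNA levels, and the activity of the kinase was not measured here.

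Of 11 tested genes of the MYC network, the family of MYC, its partners and its antagonists, 4 were higher (36.4%) and 1 lower (9.09%) in each comparison, against 31.2% and 25.7% of all genes higher, with medians of 0.17 and 0.19. Myc itself was at 96.9 ± 5.05, 106.8 ± 7.77 and 85.7 ± 8.52 CPM in Tu-Gr1+CD11b+–primed, Spl-Gr1+CD11b+–primed and parental cells, with a log2 fold change of 0.18 (adjusted p = 0.0539, edgeR) in the first and 0.32 (adjusted p = 0.00317) in the second. Mxi1, an antagonist of MYC, rose by 0.57 and 0.33, and Mnt, another, fell by 0.31 and 0.49. Mxd4, also an antagonist, was higher in Tu-Gr1+CD11b+–primed than in Spl-Gr1+CD11b+–primed cells by 0.42 (adjusted p = 0.0087, edgeR).

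The genes for mitochondrial ribosomal proteins, which build the separate ribosome inside mitochondria, were also mostly lower. Of 78, 64 were lower and 0 higher in Tu-Gr1+CD11b+–primed cells, with a median of -0.41, and 47 lower and 0 higher in Spl-Gr1+CD11b+–primed cells, with a median of -0.25. Between the primed groups 2 of 78 (2.56%) were lower in Tu-Gr1+CD11b+–primed cells, near the 2.97% of all genes, with a median of -0.12. No test compared one list with another or with all genes.

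**Figure D5:**
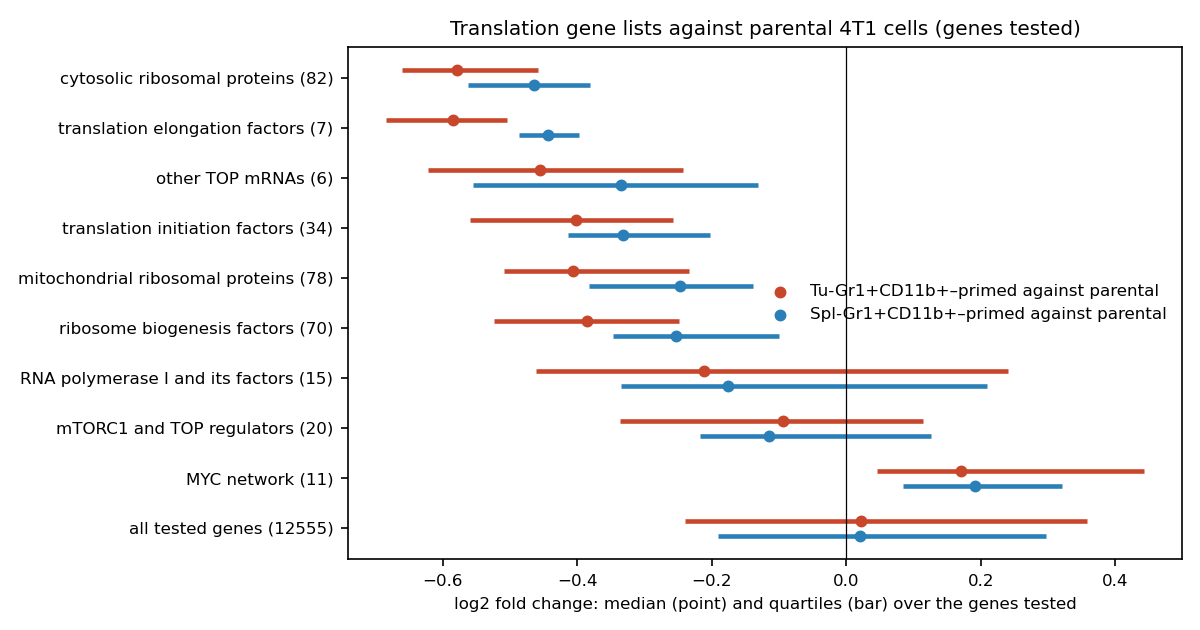
Median log2 fold change against parental cells (points) and its quartiles over genes (bars, a spread between genes and not an error) for each list, with the number of genes tested, in both primed groups. Cytosolic ribosomal proteins lie at -0.58 and -0.46, mitochondrial ribosomal proteins at -0.41 and -0.25, the MYC network at 0.17 and 0.19, and all genes at 0.02.

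Over the 12 libraries, the genes outside the set whose log2 level ran closest to the members' mean were Psmd8, a proteasome lid subunit (Pearson's r = 0.992), the respiratory chain subunits Ndufs6 (0.991) and Uqcrh (0.990), the nucleotide hydrolase Hint1 (0.990) and Btf3, which guides new peptides at the tunnel exit (0.989). These are descriptions over libraries that share their groups and scaling. Within the set, the members least like the mean of all tested members, themselves included, were Rps18 (-0.79), Rpl12 (0.11), Rpl5 (0.20), Rps2 (0.45) and Rpl10a (0.73).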

How the data were processed

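RNA was extracted from 4T1 cells lysed in the well, and stranded libraries were made (TruSeq). The authors ran FastQC, Trimmomatic 0.39 and Salmon 1.4.0 on GRCm38/mm10, per the labels, and deposited estimated counts, TPM and effective lengths for 117081 transcripts per library, with the same effective length in all libraries; the transcript annotation release was not given in the sources used here. A deposited table of normalized counts was not used.

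Estimated counts were summed per gene with GENCODE M21 (116021 transcripts matched) and rounded. All 12 libraries were fitted together with edgeR 4.0.16 (R 4.3.3): filterByExpr, trimmed mean of M values, quasi-likelihood test, prior count 2, Benjamini-Hochberg adjustment, SE = |log2 fold change| divided by the square root of F. CPM are scaled the same way. Transcripts were fitted likewise. DESeq2 1.42.0 and limma 3.58.1 (voom) were alternatives, with other scalings, filters, thresholds, length offsets, left-out libraries and a replicate block. Copies were matched with BLAST 2.17.0. The scripts were tested on simulated data. The closest libraries of a group differed by more than counting noise (chi-square per degree of freedom 3.46 or more). Counting error alone is small at this depth for genes with many reads, but not for transcripts with few.

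The members and gene lists were chosen with earlier results of these data known. Named were the 5 members of smallest p per direction and comparison, the 5 highest in TPM, those of the stalk, 5S, paralog and non-subunit lists, Rps6, Rpsa and Rps27a, the 5 genes most like the members' mean, and per list the gene of smallest p per direction; 1 gene is not reported here, and other names were added as examples after their values were seen.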

Additional observations from a re-analysis of the deposited data

Results flagged for a closer look

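Each value here lies further from the other 3 libraries of its group than Dixon's 95% limit allows. Chance gives this in about 1 in 20 groups, and 19 of 246 groups of member levels passed the limit. No cause was tested.

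Most of these values came from Spl-Gr1+CD11b+–primed replicate 3, which was high. The members took 4.14% of its reads, against 3.30% to 3.42% in the other 3 libraries. Single genes were high in it as well: Rpl22 at 207.6 CPM, Rpl23a at 684 CPM, Rpl26 at 98.0 CPM, Rpl35a at 64.2 CPM, Rps20 at 406 CPM, Rps26 at 388 CPM, Rps27 at 229.8 CPM, Rps27a at 640.5 CPM and Rps7 at 129.6 CPM. For Rps27 the other 3 libraries lay at 177 to 179 CPM.

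The other values were spread over 3 libraries. Retained-intron transcripts took 7.08% of the members' reads in Tu-Gr1+CD11b+–primed replicate 3 (others 6.65% to 6.72%) and 5.65% in parental replicate 2 (others 5.86% to 5.89%). Rps18 was at 15.1 CPM in parental replicate 2 (others 9.98 to 10.6), and Rps7 at 200.7 CPM in parental replicate 4 (others 168.5 to 172).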

How the results depend on the processing

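Counts of lower members under other settings are given without the share of all genes called lower under the same setting. In Tu-Gr1+CD11b+–primed against parental cells, 78 members were lower whichever library was left out, and in Spl-Gr1+CD11b+–primed cells 75 to 78. An absolute log2 fold change over 0.5 left 31 lower in the latter, a count given without the share of all genes under that rule. The number higher was 0 in both from protein-coding transcripts alone and with matched copies added, and 2 with length offsets in Spl-Gr1+CD11b+–primed cells. Scaling by library totals gave medians of -0.39 and -0.29, while the median of all genes moved to 0.21 and 0.19, by the construction of that scaling. With it, 71 and 62 members were lower, while 7725 and 6435 of all 12555 tested genes were called in either direction. The medians without 1 library ran from -0.63 to -0.51, from -0.55 to -0.40 and, between the primed groups, from -0.14 to 0.0042, the last without Spl-Gr1+CD11b+–primed replicate 3.

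Noncoding transcripts of members called higher numbered 74 to 98 and 68 to 92 without 1 library, 36 and 34 with a minimum of 10 counts (which tests fewer transcripts), and 54 and 49 at an adjusted p under 0.01. Those called lower in Spl-Gr1+CD11b+–primed cells numbered 4 with library totals and 13 at the stricter threshold. These counts are given without the shares of all noncoding transcripts under the same settings. DESeq2 called 1 lower between the primed groups.

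The members' share of reads for Tu-Gr1+CD11b+–primed, Spl-Gr1+CD11b+–primed and parental cells was 3.70%, 3.98% and 4.89% with named pseudogenes added, 4.41%, 4.76% and 5.82% with all matched copies, 10.6%, 11.0% and 11.5% in TPM, and 11.8%, 12.4% and 14.5% in TPM without mitochondrially encoded genes. The noncoding share of member reads was 19.2%, 19.2% and 17.9% in TPM. The settings with matched copies or without mitochondrial genes were chosen after seeing the data.

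Against parental cells, signs turned for few members. Between the primed groups, where fold changes were small, signs turned over the settings for many of the named members. Rps6 ran from -0.11 to 0.036 there and Rps7 from -0.094 to 0.13, while Rplp1 stayed negative (-0.37 to -0.17). The values that follow are against parental cells unless stated otherwise. From protein-coding transcripts alone, Rps18 was at -0.62 and -0.72, Rpl12 at -0.56 and -0.80, Rpl5 at -0.10 in Tu-Gr1+CD11b+–primed and Rps2 at -1.03 in Spl-Gr1+CD11b+–primed cells. With matched copies, Rps18 was at -0.48 and -0.37, Rpl12 at -0.51 and -0.43, Rpl5 at -0.37 in Tu-Gr1+CD11b+–primed, Rps2 at -0.52 in Spl-Gr1+CD11b+–primed cells (the same with named pseudogenes), and Rpl5 at -0.040 between the primed groups. Length offsets put Rps2 at 0.38 and 0.85 and Rpl5 at 0.030 in Spl-Gr1+CD11b+–primed cells. Library totals put Rpl5 at 0.057, Rpl7l1 at 0.073 and Rpl10a at 0.056 in Spl-Gr1+CD11b+–primed cells. Without 1 library, Rpl12 ran from -0.092 to 0.14 and from -0.089 to 0.16, Rpl5 in Tu-Gr1+CD11b+–primed cells from -0.087 to 0.087, and Rps2 in Spl-Gr1+CD11b+–primed cells from -0.089 to 0.15. Beyond the construction of each setting the cause was not tested.

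Samples share replicate numbers across groups, and the deviations of same-numbered libraries had r from -0.16 to 0.15 (2 of 12 pairs over 0.1). Between Tu-Gr1+CD11b+–primed and parental libraries all same-numbered pairs were positive (0.08 to 0.15). Differently numbered pairs of these groups ran from -0.22 to 0.14. Same-numbered pairs in the other group comparisons had both signs. A shared effect of the replicate number was not tested. With the replicate block, 78 and 76 members were lower, with medians of -0.58 and -0.46. The division of estimated counts between near-identical copies limits what single genes show.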
